A study of Mus musculus with 18 samples.

Results

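The genes examined here encode the receptors on which glutamate acts and the scaffold proteins that hold those receptors in the postsynaptic density. They were chosen by gene symbol and number 37 of the 55487 genes in the count table: 23 glutamate receptor genes (4 AMPA, 5 kainate, 1 delta, 7 NMDA and 6 metabotropic) and 14 scaffold genes (4 of the DLG, 3 of the SHANK, 3 of the HOMER and 4 of the DLGAP family). Of these, 36 passed the filter on low counts, beside 17414 genes in all. The gene left out was Grin3b, an NMDA receptor subunit with 0 to 17 reads in each of the 17 mice compared.

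RNA was measured in the frontal cortex of 18 mice aged 9 to 10 months, 3 females and 3 males of each of 3 genotypes. APP/PS1 mice carry the transgenes of line 85Dbo on a B6C3 background, which include mutant APP (APPswe), and develop amyloid plaques. APP/PS1/FTnKO mice carry the same transgenes and have lost farnesyltransferase (FT) in forebrain neurons: both alleles of Fntb, the gene for the FT β-subunit, are floxed and Cre is driven by the CaMKIIα promoter. That promoter is active in excitatory forebrain neurons after birth, so interneurons and glia keep the enzyme. By the study's methods all 3 genotypes were littermates with both Fntb alleles floxed, the APP/PS1 and WT mice lacking Cre. The design description names the WT mice C57BL/6J instead, and this difference could not be settled here. The APP/PS1/FTnKO mice are called the knockout in what follows. Nothing in the labels names separate breeding or sequencing batches. One WT female, mouse 19622, was kept apart from every comparison unless stated, which leaves 5 WT, 6 APP/PS1 and 6 knockout mice.

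Each library held 15925432 to 21030935 reads assigned to genes. Fntb itself measured 7.84 to 14.7 normalized CPM (counts scaled to library size by TMM) in knockout mice, 14.2 to 32.1 in APP/PS1 and 14.1 to 32.2 in WT; the difference between the knockout and APP/PS1 was -0.77 on the log2 scale (SE 0.26, adjusted p = 0.251), and 5 of the 6 knockout mice lay below every APP/PS1 mouse. APP/PS1 mice 19553 and 19554 (28.7 and 32.1 CPM) and WT mice 19718 and 19721 (32.2 and 30.8 CPM) were high for Fntb. The other APP/PS1 and WT mice lay at 14.1 to 17.1 CPM, and the cause of this split was not tested. App, whose mouse gene can take up reads of the transgene, was higher in every transgenic mouse (2117 to 3640 CPM) than in WT (1492 to 1613 CPM). The 8 markers of cerebellum summed to 28.2 to 58.5 CPM in the 17 mice. RNA integrity numbers (RIN) were 8.5 to 8.8 in the WT mice, 7.7 to 8.7 in APP/PS1 and 7.6 to 8.7 in the knockout.

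Glutamate opens AMPA, kainate and NMDA receptors, which are ion channels of several subunits, and activates metabotropic receptors, which signal through G proteins. AMPA receptors carry the fast current of most excitatory synapses, NMDA receptors admit calcium and start synaptic plasticity, and kainate receptors modulate transmission on both sides of the synapse. Beneath them, PSD-95 and its relatives of the DLG family bind receptor tails, DLGAP proteins link DLG to SHANK, and SHANK and HOMER join the receptors to the actin skeleton and to calcium stores. Loss of the synapses that hold these proteins accompanies Alzheimer's disease.

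The 36 tested genes spanned a wide range of levels. Per length of exon (RPKM, CPM per kilobase of exon), the highest in WT mice were the AMPA subunit Gria1 (74.1 ± 3.22 RPKM, SD, n = 5) and the scaffold Dlgap3 (70.9 ± 3.54 RPKM), whose ranges overlapped. They were followed by Shank1 (61.7 RPKM, SD 8.11% of the mean), the obligatory NMDA subunit Grin1 (59.0 ± 2.45 RPKM) and Dlg4, the gene for PSD-95 (58.8 ± 1.75 RPKM), which did not differ from each other beyond their spread. The lowest of the tested genes were Grin2d (2.41 ± 0.27 RPKM), Homer3 (2.40 ± 0.26 RPKM), the kainate subunit Grik1 (2.14 ± 0.37 RPKM) and the presynaptic receptor gene Grm8 (1.56 ± 0.20 RPKM). Gria1 and Dlgap3 held the first 2 places in each of the 3 genotypes, and Grm8 the last place among the tested genes.

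**Figure D1:**
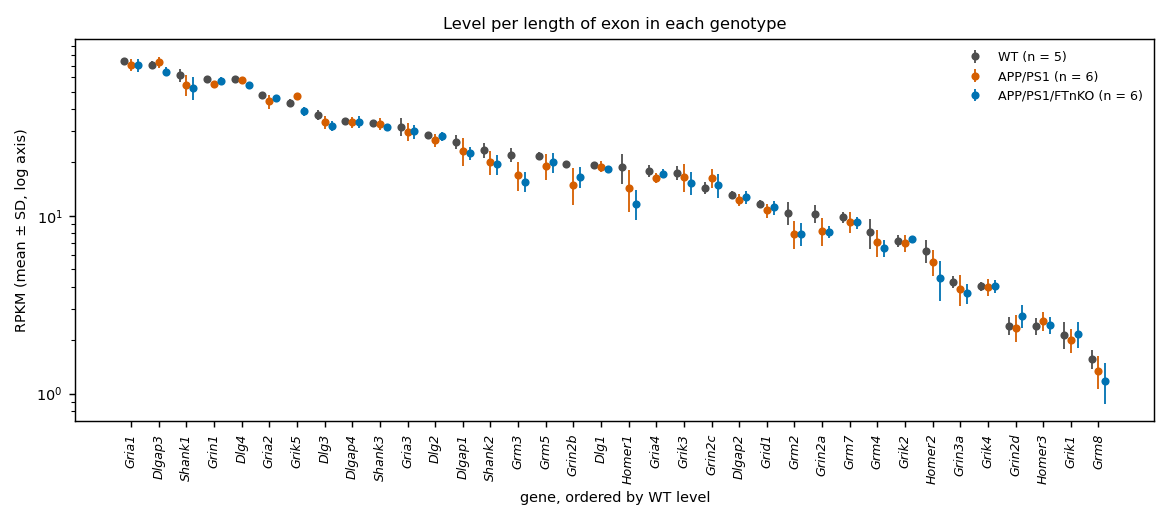
Mean RPKM (log axis, error bars SD) of the 36 tested genes in WT (n = 5), APP/PS1 (n = 6) and APP/PS1/FTnKO (n = 6) mice, ordered by the WT level. Levels run from Gria1 at 74.1 RPKM to Grm8 at 1.56 RPKM in WT, and Gria1 and Dlgap3 lead in all 3 genotypes.

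In the test across all genes 3 of the 36 genes differed between genotypes, and each was lower in the knockout: Grik5 against APP/PS1 (1 gene, beside 0.327% of all genes called), Grm3 and Homer1 against WT (2 genes, beside 3.87%). Between APP/PS1 and WT 0 were called, beside 1.5% of all genes. The calls of Grm3 and Homer1 were lost with RNA integrity (RIN) in the model. The 120 bases before the RefSeq start of each are shown (GRCm38.p6, 5′ to 3′ on the strand of the gene), because they are the annotated promoters of the 3 called genes; counts per gene do not show which start is in use. Capitals mark 2 short motifs searched on both strands, the GC box GGGCGG and the TGACG core of the cAMP response element (CRE), to which factors of the CREB family bind.

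Grik5, chr7:25072370-25072489, minus strand: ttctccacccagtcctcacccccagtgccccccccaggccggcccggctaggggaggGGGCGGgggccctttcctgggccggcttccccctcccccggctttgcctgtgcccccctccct
Grm3, chr5:9725353-9725472, minus strand: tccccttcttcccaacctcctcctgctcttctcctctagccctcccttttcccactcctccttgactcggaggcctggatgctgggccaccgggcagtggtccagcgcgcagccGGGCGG
Homer1, chr13:93303637-93303756, plus strand: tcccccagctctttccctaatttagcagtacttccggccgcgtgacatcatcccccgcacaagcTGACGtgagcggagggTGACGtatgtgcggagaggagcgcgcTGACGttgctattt

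The Grik5 and Grm3 stretches each held 1 GC box and no TGACG, and the Homer1 stretch held 3 copies of TGACG and no GC box. Of all 32851 RefSeq windows of 300 bases around a start, 35.7% held GGGCGG, 20.8% held TGACG and 1.03% held TGACG at least 3 times. RefSeq windows were at hand for 25 of the 37 genes (39 windows), of which 18 held the GC box and 7 TGACG. A second start of Homer1 (chr13:93307914-93308033 for the same stretch) held neither. A match of letters does not show that a factor binds there.

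The first comparison, the knockout against APP/PS1, asks what loss of neuronal FT does to these genes in mice that form plaques. One gene, Grik5, was lower in the knockout, and no gene was higher. In bulk tissue such as this, fewer cells of a type and less RNA per cell cannot be told apart. This is 1 of 36 genes at an adjusted p below 0.05 (edgeR quasi-likelihood test, Benjamini-Hochberg over all tested genes), beside 0.327% of all 17414 genes. At an unadjusted p below 0.05, 3 genes were lower (Grik5, Homer2 and Dlgap3) and none higher, where 5.69% of all genes were lower by that rule. In sign, 20 genes were lower and 16 higher, with a median difference of -0.023 on the log2 scale against -0.0016 over all genes. This balance rested on single mice: it turned to 16 lower and 20 higher without knockout mouse 16974 (median 0.0099) or without APP/PS1 mouse 19744 (median 0.011), and to 17 lower and 19 higher without APP/PS1 mouse 19619 (median 0.0025). The 95% confidence intervals of 33 of the 36 genes lay within ±0.50 on the log2 scale, the exceptions being Grm8, Homer1 and Homer2. With RIN in the model Grik5 was again the gene called, 26 genes were lower and 10 higher, the median was -0.053, and 9 genes (8 lower) had an unadjusted p below 0.05, where 2793 of all 17414 genes did.

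The second comparison, APP/PS1 against WT, asks what the transgenes do. No gene passed the adjusted threshold (edgeR, smallest adjusted p 0.126, for Grm3; 0 genes also by DESeq2 and limma-voom), beside 1.5% of all genes. At an unadjusted p below 0.05 there were 9 lower genes, Gria4, Grin1, Grin2a, Grin2b, Grm2, Grm3, Dlg3, Shank2 and Homer1, and 1 higher gene, Grik5, where 6.05% of all genes were lower by that rule. In sign, 32 of 36 genes were lower, with a median of -0.100 against -0.0023 over all genes. RIN moved with this difference: with RIN in the model 23 genes were lower and 13 higher, and the median was -0.037. In that fit 1 gene had an unadjusted p below 0.05, beside 1463 of all 17414 genes (10 and 2431 without RIN). With only mice of RIN 8 or more, 28 genes were lower and 8 higher (median -0.063). There 4 genes had an unadjusted p below 0.05, beside 1611 of all 17413.

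The third comparison, the knockout against WT, holds both changes at once. Grm3 and Homer1 were lower, 2 of 36 genes beside 3.87% of all genes. At an unadjusted p below 0.05 there were 14 genes, all lower, where 10.9% of all genes were lower by that rule. In sign, 30 genes were lower and 6 higher, with a median of -0.102 against 0.0053 over all genes. With RIN in the model neither gene passed the adjusted threshold (smallest adjusted p 0.0508), while 29 of 36 genes were lower, with a median of -0.077. This comparison shares its WT mice with the second and its knockout mice with the first, so their values are not independent.

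**Figure D2:**
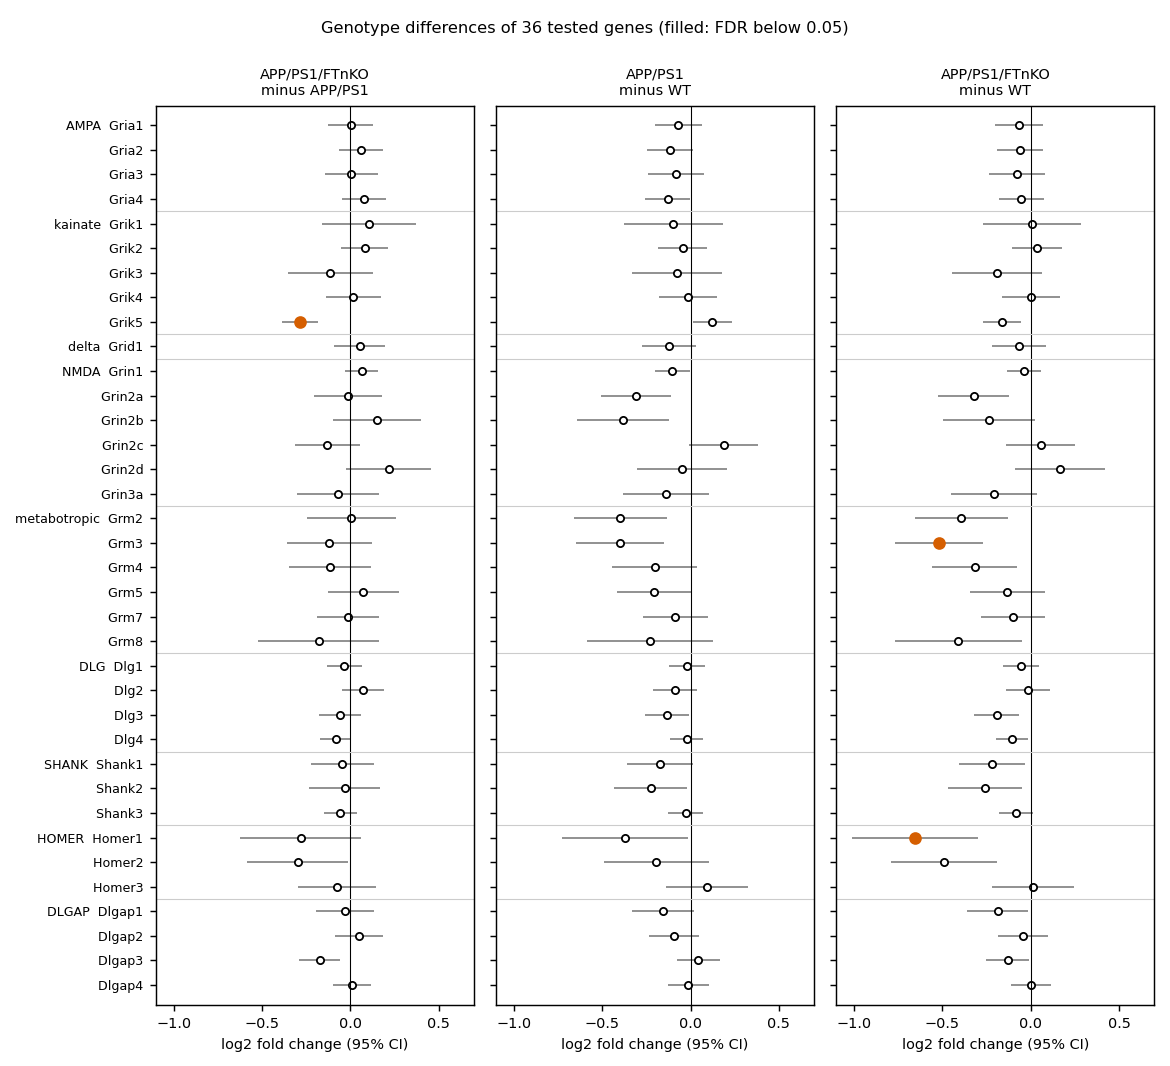
Log2 fold change (points) with 95% confidence interval (lines) of 36 genes in 3 comparisons, grouped by family; filled points have an adjusted p below 0.05. Grik5 is the filled point of the first panel at -0.29, Grm3 (-0.52) and Homer1 (-0.65) are those of the last panel, and in the second panel 32 of 36 points lie left of 0.

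The 4 AMPA subunit genes, which form the fast glutamate channel, did not pass the threshold in any comparison. Gria2, whose edited subunit keeps calcium out of the channel, was the most abundant by CPM, at 744 ± 32.7 in WT (SD, n = 5), 684 ± 62.1 in APP/PS1 and 713 ± 35.0 in the knockout (n = 6 each). In value, all 4 were below WT in APP/PS1 (-0.068 to -0.13 on the log2 scale) and above APP/PS1 in the knockout (0.0019 to 0.077). Gria4 measured 123, 106, 101, 117 and 117 CPM in the 5 WT mice, 95.4 to 111 CPM in APP/PS1 (median 103) and 99.1 to 116 CPM in the knockout (median 109.8). The 3 genotypes overlapped, and its difference between APP/PS1 and WT was -0.13 (SE 0.061, adjusted p = 0.353).

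Among the kainate subunits the data turned on Grik5, a subunit that raises the affinity for glutamate and needs a partner from Grik1 to Grik3 to form a channel. Its CPM was 220.4, 214, 224, 217 and 242 in the WT mice. In APP/PS1 it ran from 223 to 256 with a median of 246, and in the knockout from 184 to 221 with a median of 198. Every knockout mouse lay below every APP/PS1 mouse, a separation in that direction found in 0.373% of all genes, and WT mice lay between, overlapping both. Grik5 was 17.9% lower in the knockout than in APP/PS1 (log2 fold change -0.29, SE 0.049, 95% CI -0.39 to -0.18, adjusted p = 0.0170). Against WT it was 8.93% higher in APP/PS1 (log2 0.12, SE 0.052, adjusted p = 0.295) and 10.6% lower in the knockout (log2 -0.16, SE 0.052, adjusted p = 0.0828), neither past the threshold.

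The Grik5 difference kept its size when RIN was in the model (-0.28, adjusted p = 0.0124). Its adjusted p rose above 0.05 in 5 fits: without APP/PS1 mouse 19553 (0.0501), without APP/PS1 mouse 19554 (0.0658), with the knockout and APP/PS1 mice alone (0.0634), with only mice of RIN 8 or more (0.146) and in the fit that included WT mouse 19622 (0.914), where the fold change was still -0.29. The log2 difference was -0.32 to -0.26 in the 17 fits that left out 1 mouse and -0.29 to -0.27 in the other fits.

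The other 4 kainate genes, Grik1 to Grik4, did not pass the threshold in any comparison. Grik2, a channel-forming subunit, measured 90.6, 92.0, 105, 87.7 and 102 CPM in WT, 78.5 to 107 (median 94.9) in APP/PS1 and 91.9 to 103 (median 99.3) in the knockout, so the genotypes overlapped throughout. It was the gene with the smallest p among those higher in the knockout than in WT after Grin2d and Grin2c, at 0.036 (SE 0.066, adjusted p = 0.791). The delta receptor gene Grid1, whose protein binds synaptic organizers rather than passing a glutamate current, was at 69.4 ± 3.79, 64.0 ± 5.87 and 66.4 ± 6.02 CPM in WT, APP/PS1 and the knockout, with no difference past the threshold.

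**Figure D3:**
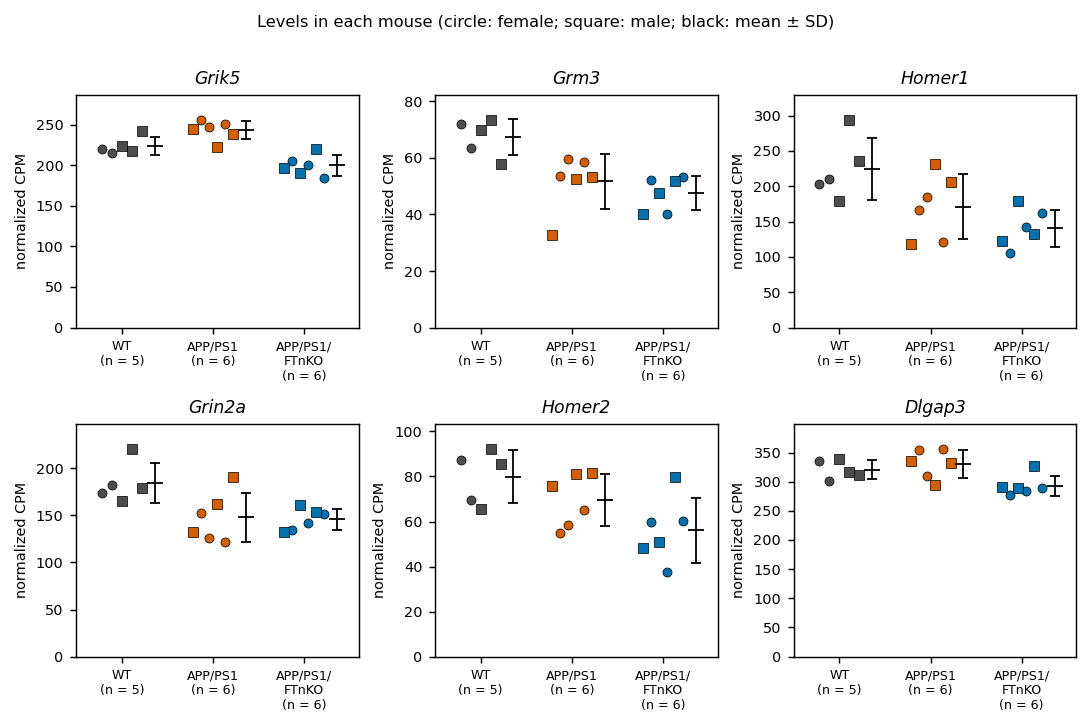
Normalized CPM of Grik5, Grm3, Homer1, Grin2a, Homer2 and Dlgap3 in each mouse (circles female, squares male), with the mean ± SD in black, for WT (n = 5), APP/PS1 and APP/PS1/FTnKO (n = 6 each). The 6 APP/PS1/FTnKO mice lie below all APP/PS1 mice for Grik5 (184 to 221 against 223 to 256) and below all WT mice for Grm3 and Grin2a.

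Of the NMDA subunit genes none passed the threshold, and in APP/PS1 against WT the lowest p belonged to Grin2a and Grin2b. Grin2a and Grin2b encode the GluN2 subunits that set how long the channel stays open, Grin2b dominating in the young brain and Grin2a joining it in the adult. Grin2a measured 174, 182, 166, 220.4 and 179 CPM in WT, 122 to 191 (median 143) in APP/PS1 and 132 to 160.5 (median 147) in the knockout. All 6 knockout mice and 5 of 6 APP/PS1 mice lay below every WT mouse. Together with Grm3, Grin2a was 1 of 2 genes whose knockout and WT groups did not overlap, a separation in that direction found in 2.85% of all genes; between APP/PS1 and WT no gene of the 36 was so separated, against 0.695% of all genes. The Grin2a difference was -0.31 in APP/PS1 (SE 0.095, adjusted p = 0.146) and -0.32 in the knockout (SE 0.095, adjusted p = 0.0658) against WT, short of the threshold in both. In the edgeR fit of the knockout and WT mice alone, Grin2a passed the threshold (-0.33, adjusted p = 0.0272).

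Grin2b measured 475, 511, 468, 505 and 479 CPM in WT, 276 to 516 (median 344) in APP/PS1 and 341 to 482 (median 394) in the knockout. The WT mice lay close together, 5 of 6 APP/PS1 mice lay below them, and the remaining APP/PS1 mouse, 19744, lay above them all. The difference was -0.38 in APP/PS1 (SE 0.12, adjusted p = 0.166) and -0.23 in the knockout (SE 0.12, adjusted p = 0.280) against WT. Without mouse 19744, Grin2a (adjusted p = 0.0212) and Grin2b (adjusted p = 0.0169) both passed the threshold between APP/PS1 and WT.

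Grin1, the subunit that every NMDA receptor contains, measured 556, 578, 541, 600.3 and 586 CPM in WT, 515 to 543 (median 538) in APP/PS1 and 520 to 601 (median 559.7) in the knockout. In APP/PS1, 5 of 6 mice were below all WT mice, but the difference was small (-0.10, SE 0.047, adjusted p = 0.334), and in the knockout the range covered that of WT. Grin2c, a subunit also found in astrocytes, went the other way in value: 73.7, 68.9, 81.6, 66.4 and 72.7 CPM in WT, 74.8 to 98.8 (median 76.3) in APP/PS1 and 65.7 to 94.6 (median 69.1) in the knockout. Its difference between APP/PS1 and WT was 0.19 (SE 0.092, adjusted p = 0.377).

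Grin2d, an interneuron-rich subunit, measured 16.6, 15.2, 18.5, 13.6 and 16.4 CPM in WT, 11.2 to 19.1 (median 16.03) in APP/PS1 and 14.5 to 21.1 (median 18.3) in the knockout. All groups overlapped, and the highest value of the 36 genes in the knockout against APP/PS1, 0.22, had an SE of 0.11 and an adjusted p of 0.496. Grin3a, which lowers calcium flow, was at 52.3 ± 4.17, 47.3 ± 9.37 and 44.9 ± 5.98 CPM in the same order of genotypes. Grin3b was at 0.00 to 1.02 CPM in the 17 mice and was not tested.

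The ratio of Grin2b to Grin2a counts within a library, which needs no scaling between libraries, was 2.67 ± 0.218 in WT, 2.51 ± 0.249 in APP/PS1 and 2.83 ± 0.307 in the knockout. The ratio of Gria1 to Gria2 counts was 0.603 ± 0.0250, 0.6253 ± 0.0445 and 0.600 ± 0.0498. Exact two-sided permutation tests over mice gave no adjusted p below 0.05 in the 6 comparisons of 2 ratios. The smallest p, 0.0866, was for Grin2b to Grin2a between the knockout and APP/PS1 (log2 difference 0.17, adjusted p = 0.462 over the 6 tests), where 0.00216 is the smallest p that these group sizes allow.

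Of the 6 metabotropic genes, all had lower values than WT in both transgenic genotypes, and 1 passed the threshold. Grm2 and Grm3 form group II, which couples to inhibitory G proteins; Grm2 sits mainly on axons and Grm3 on neurons and astrocytes. Grm3 measured 71.996, 63.6, 69.7, 73.4 and 57.9 CPM in WT, 32.6 to 59.7 (median 53.4) in APP/PS1 and 40.1 to 53.1 (median 49.7) in the knockout. Every knockout mouse lay below every WT mouse, and 4 of 6 APP/PS1 mice did. Grm3 was 30.2% lower in the knockout than in WT (log2 -0.52, SE 0.12, 95% CI -0.77 to -0.27, adjusted p = 0.0233) and 24.2% lower in value in APP/PS1 (log2 -0.40, SE 0.12, adjusted p = 0.126). Between the knockout and APP/PS1 the difference was -0.12 (SE 0.11, adjusted p = 0.746).

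The Grm3 call against WT was lost with RIN in the model (-0.45, adjusted p = 0.0508) and in the fit that included WT mouse 19622 (-0.35, adjusted p = 0.334). It was also lost without knockout mouse 16974, WT mouse 18944 or WT mouse 19718 (adjusted p up to 0.0718), and it held with only mice of RIN 8 or more (-0.46, adjusted p = 0.0110).

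Grm2 measured 59.0, 48.3, 40.05, 56.1 and 51.8 CPM in WT, 29.5 to 46.6 (median 40.4) in APP/PS1 and 32.4 to 49.3 (median 37.8) in the knockout. The groups overlapped, with 5 of 6 knockout mice below every WT mouse. Its differences from WT, -0.40 in APP/PS1 (SE 0.13, adjusted p = 0.155) and -0.39 in the knockout (SE 0.13, adjusted p = 0.0828), did not pass the threshold. The knockout mouse with the highest Grm2 level, 19720, also had the highest sum of olfactory bulb markers in its genotype (60.5 CPM), and those markers are given with Homer2. Other mice went the other way. Knockout mouse 16974, the lowest of its genotype in Grm2, had a sum of 40.9 CPM, above the knockout median of 30.1. WT mouse 19718 had the lowest sum in WT (31.2 CPM) with Grm2 at 56.1 CPM. Grm5, the group I receptor that couples to calcium release and binds HOMER, was at 223 ± 9.97, 195 ± 31.6 and 205 ± 26.6 CPM. The group III genes Grm4, Grm7 and Grm8, which restrain release at nerve endings, differed from WT by -0.085 to -0.23 in APP/PS1 and by -0.099 to -0.41 in the knockout, with a smallest adjusted p of 0.119.

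None of the 4 DLG genes passed the threshold. Dlg4 was at 779 ± 23.1 CPM in WT, 766 ± 31.4 in APP/PS1 and 723 ± 25.1 in the knockout; its difference from WT in the knockout was -0.11 (SE 0.044, adjusted p = 0.171). Dlg3, which encodes SAP102, was at 216 ± 14.3, 196 ± 15.7 and 188 ± 11.95 CPM, and its difference in the knockout was -0.19 (SE 0.060, adjusted p = 0.0775). Dlg1 and Dlg2 differed between genotypes by no more than 0.087 on the log2 scale in any comparison.

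The SHANK genes, which build the deep layer of the postsynaptic density, were lower in value in both transgenic genotypes. Shank1 was at 648 ± 52.6 CPM in WT, 572 ± 75.2 in APP/PS1 and 553 ± 83.1 in the knockout, and Shank2 at 253 ± 24.5, 216 ± 33.4 and 210 ± 27.5 CPM. None passed the threshold; the smallest adjusted p, for Shank2 in the knockout against WT, was 0.139 (log2 -0.26, SE 0.0995). Shank3 was at 305 ± 8.90, 301 ± 23.0 and 289 ± 10.3 CPM.

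Homer1 had the largest fold change of the 36 genes in the knockout against WT. It encodes the main adaptor between group I metabotropic receptors and SHANK, and also a short form, Homer1a, that neuronal activity induces and that uncouples the others; counts per gene do not separate the forms. Homer1 measured 203, 209.9, 179, 294 and 235 CPM in WT, 118 to 232 (median 175) in APP/PS1 and 106 to 179 (median 137) in the knockout. In the knockout, 5 of 6 mice lay below every WT mouse, and the sixth (179 CPM) was level with the lowest of them, while APP/PS1 mice spanned both groups. Homer1 was 36.5% lower in the knockout than in WT (log2 -0.65, SE 0.17, 95% CI -1.01 to -0.30, adjusted p = 0.0397). The difference was -0.37 in APP/PS1 against WT (SE 0.17, adjusted p = 0.337) and -0.28 between the knockout and APP/PS1 (SE 0.16, adjusted p = 0.551).

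The Homer1 call, though not the size of its difference, depended on single mice. The log2 difference was -0.74 to -0.56 in the 17 fits that left out 1 mouse, and the call was lost in 9 of them (adjusted p up to 0.115), the mice concerned being knockout mice 16974, 18943, 19394 and 19720, WT mice 18944, 19053, 19718 and 19721, and APP/PS1 mouse 19553. It was also lost with RIN in the model (-0.52, adjusted p = 0.0787), with only mice of RIN 8 or more (-0.57, adjusted p = 0.0591) and with WT mouse 19622 included (-0.43, adjusted p = 0.470). Immediate early genes, which neuronal activity induces like Homer1a, were read too: 7 of 7 (Fos, Fosb, Junb, Arc, Egr1, Npas4, Nr4a1, a list chosen after the Homer1 values were seen) had lower values in the knockout than in WT, Egr1 (-0.64, adjusted p = 0.0208) and Arc (-0.95, adjusted p = 0.0215) past the threshold. All 7 were also lower in value in APP/PS1 than in WT (median -0.29), in the knockout than in APP/PS1 (-0.22) and in females than in males (-0.10). Their summed level was 948 to 1289 CPM in WT mice, 771 to 1071 CPM in the APP/PS1 mice and 538 to 1095 CPM in the knockout, and none of them was at 0 in any group. Knockout mouse 18973 was the highest of its genotype in this sum and in Homer1. APP/PS1 mouse 16975 had the lowest Homer1 of its genotype (118 CPM) at a sum of 1045 CPM. The part of these genes in the Homer1 difference was not tested.

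Homer2, a related adaptor, measured 87.3, 69.4, 65.3, 92.2 and 85.4 CPM in WT, 54.98 to 81.4 (median 70.5) in APP/PS1 and 37.6 to 79.9 (median 55.3) in the knockout. In the knockout 5 of 6 mice lay below every WT mouse and 3 of 6 below every APP/PS1 mouse. Its difference was -0.49 against WT (SE 0.14, adjusted p = 0.0613) and -0.30 against APP/PS1 (SE 0.14, adjusted p = 0.409). Markers of olfactory bulb (Cdhr1, Doc2g, Tbx21 and Eomes) also varied among the mice. They summed to 31.2 to 77.9 CPM (median 51.2) in WT mice, 31.2 to 106 CPM (median 42.2) in the APP/PS1 mice and 5.48 to 60.5 CPM (median 30.1) in the knockout, and none was at 0 in all mice of a genotype. The 3 of these 4 markers that could be tested had lower values in the knockout than in WT (median -0.83) and than in APP/PS1 (median -0.76), and none had an unadjusted p below 0.05 in any comparison of genotypes. Knockout mouse 19720, the highest of its genotype in Homer2 (79.9 CPM), was the highest in these markers (60.5 CPM), and knockout mouse 19394 was the lowest in both (37.6 and 5.48 CPM). WT mouse 19718 had the highest Homer2 level of all 17 mice (92.2 CPM) and the lowest marker sum in WT (31.2 CPM). The part of these markers in the Homer2 and Grm2 differences was not tested. Homer3, the form rich in cerebellum, measured 9.17, 8.06, 9.08, 7.05 and 7.91 CPM in WT, 6.88 to 9.79 (median 9.06) in APP/PS1 and 7.22 to 9.29 (median 8.43) in the knockout, with full overlap.

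Of the DLGAP genes, which bridge DLG and SHANK, Dlgap3 had the smallest p. It measured 335, 301, 339, 316 and 311 CPM in WT, 294 to 356 (median 334) in APP/PS1 and 277 to 327 (median 289.6) in the knockout. In the knockout 5 of 6 mice lay below every APP/PS1 mouse and the same number below every WT mouse. The difference from APP/PS1 was -0.17 (SE 0.055, adjusted p = 0.218), short of the threshold. Dlgap1 was at 467 ± 41.2, 417 ± 73.6 and 405 ± 34.04 CPM, and Dlgap2 and Dlgap4 differed by no more than 0.092 on the log2 scale in any comparison of genotypes.

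**Figure D4:**
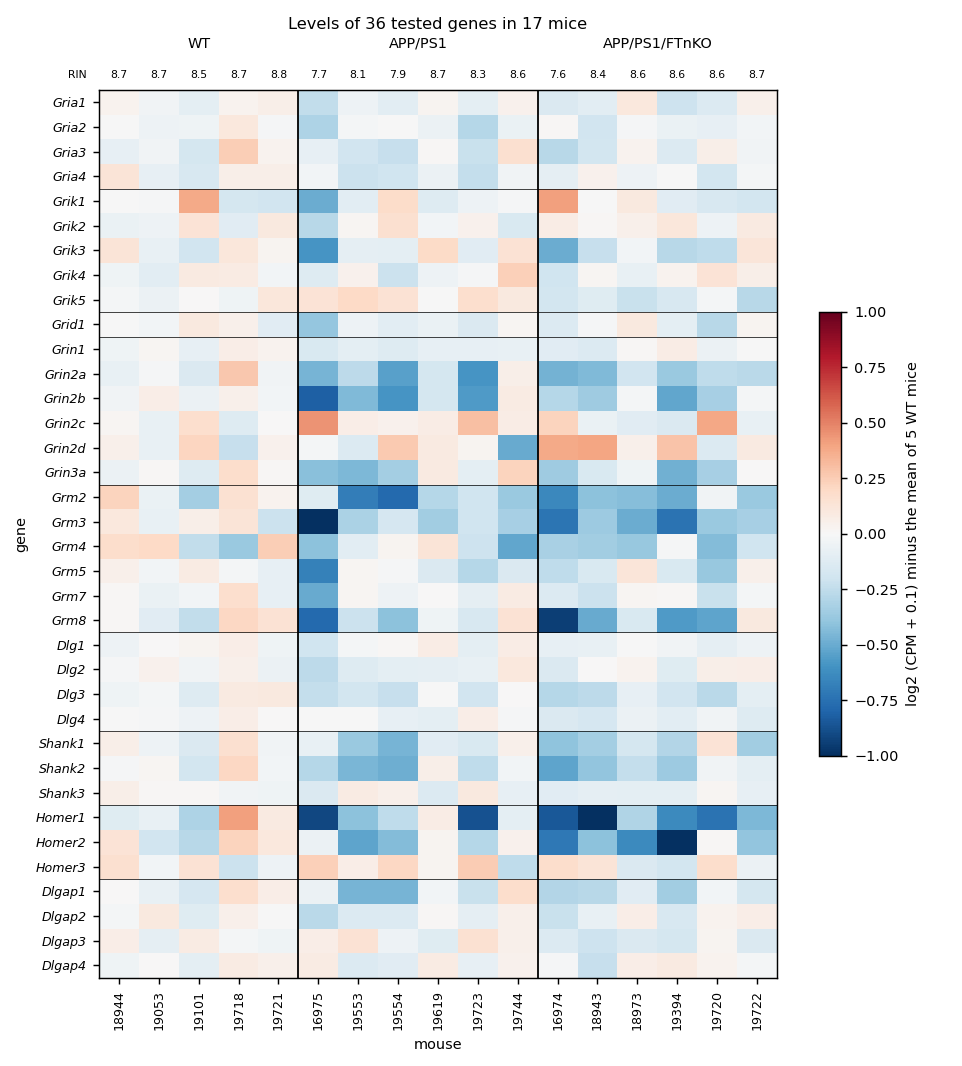
Level of 36 genes (rows) in 17 mice (columns, grouped by genotype, with RIN above each) as log2 (CPM + 0.1) minus the mean of the 5 WT mice; colours end at -1 and 1. Blue cells of Grm2, Grm3, Homer1 and Homer2 run through most APP/PS1/FTnKO mice, and APP/PS1 mouse 16975 (RIN 7.7) and APP/PS1/FTnKO mouse 16974 (RIN 7.6) hold some of the lowest values.

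In edgeR, females and males differed in no gene at an adjusted p below 0.05, beside 0.0689% of all genes; 5 of the 36 had an unadjusted p below 0.05, where 6.7% of all genes did. Dlgap1 (-0.21, SE 0.067), Shank1 (-0.17, SE 0.072), Gria3 (-0.14, SE 0.061) and Dlgap4 (-0.099, SE 0.043) were lower in value in females and Grm4 (0.21, SE 0.092) higher, with adjusted p from 0.575 to 0.701. Markers of striatum moved with sex: 7 of 7 were higher in females at an unadjusted p below 0.05 and none at an adjusted one, with a median of 0.44, and their part in the sex differences was not tested. No gene passed the edgeR test for a genotype effect that differs between the sexes (0 of 36 and 0 of 17414 genes at an adjusted p below 0.05). At an unadjusted p below 0.05 there were 2, 2 and 0 of the 36 in each comparison in turn, beside 578, 705 and 312 of all 17414 genes.

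Other genes of the pathway were read from 3 lists. Of 15 auxiliary subunit genes, which traffic and gate AMPA and kainate receptors, 0 passed the threshold in any comparison, with 2, 2 and 4 at an unadjusted p below 0.05, where 11.5%, 14% and 22.1% of all genes were. The AMPA receptor auxiliary Cnih2 had the smallest p in 2 of them, at 0.19 in APP/PS1 against WT (SE 0.058, adjusted p = 0.147) and -0.17 in the knockout against APP/PS1 (SE 0.055, adjusted p = 0.222). Of 22 genes for postsynaptic adhesion and signalling, 0 passed in the first and second comparison (2 and 5 at an unadjusted p below 0.05) and 4 in the comparison of the knockout with WT, all lower, where 3.87% of all genes passed. These were Iqsec2, an exchange factor for Arf GTPases (-0.25, SE 0.048, adjusted p = 0.00992), Kalrn, an exchange factor of dendritic spines (-0.26, SE 0.060, adjusted p = 0.0227), Lrrc7, the scaffold densin-180 (-0.45, SE 0.12, adjusted p = 0.0409) and Baiap2, an actin-binding partner of SHANK and PSD-95 (-0.30, SE 0.080, adjusted p = 0.0433). In that list 19 of 22 genes were lower in the knockout than in WT, with a median of -0.17 against 0.0053 over all genes. In APP/PS1 against WT 19 of 22 were lower as well, with a median of -0.13 against -0.0023. Of 7 glutamate transporter genes, 1 passed: Slc17a7, which fills vesicles of cortical excitatory neurons, was lower in the knockout than in WT (-0.46, SE 0.12, adjusted p = 0.0396). The calls in these lists are given from the fit without RIN. Calls over all genes in the knockout against WT fell from 674 to 388 with RIN in the model.

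Cell type markers differed beside these genes. The 5 markers of excitatory neurons all had lower values than in WT in both transgenic genotypes, 1 of them (Slc17a7, in the knockout) past the threshold, and summed to 1177 to 1765 CPM in WT mice, 999.8 to 1719 CPM in the APP/PS1 mice and 811 to 1209.9 CPM in the knockout. Slc17a7 also stands in the transporter list. The 6 interneuron markers, too, all had lower values in APP/PS1 than in WT (median -0.18, against -0.15 for the excitatory markers). In the knockout against WT, 4 interneuron markers were lower in value and 2 higher (median -0.078, against -0.25 for the excitatory markers). The 6 interneuron, 5 oligodendrocyte, 3 oligodendrocyte precursor, 3 endothelium, 7 striatum, 3 thalamus and 3 tested olfactory bulb markers had no call, and 1 of 4 hippocampus markers, Fibcd1, was lower in the knockout than WT (-0.40, adjusted p = 0.0447). Of the microglia markers, 5 of 5 had higher values in APP/PS1 against WT, 3 of them past the threshold (C1qa, Csf1r, Cx3cr1). In the knockout 4 of 5 had higher values than in WT, C1qa past the threshold (1.18, adjusted p = 0.00445), and 5 of 5 had lower values than in APP/PS1, none past it and 2 at an unadjusted p below 0.05. The microglia markers had sums of 247 to 279 CPM in WT mice, 318 to 524 CPM in the APP/PS1 mice and 255 to 410.4 CPM in the knockout. The 5 astrocyte markers all had higher values in both transgenic genotypes, Gfap past the threshold (2.78 in APP/PS1 and 2.53 in the knockout on the log2 scale), with sums of 1057 to 1178 CPM in WT mice, 1345 to 2544 CPM in the APP/PS1 mice and 1184 to 2226 CPM in the knockout. None of these neuronal or glial markers was at 0 in any group. The summed level of the 37 genes themselves was 7953 to 8931 CPM in WT mice, 7253 to 8478 CPM in the APP/PS1 mice and 7236 to 8033 CPM in the knockout, and the part that cell types have in these differences was not tested.

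WT mouse 19622 stood apart, and the genes examined here showed it clearly. On a common scaling of 18 mice, 28 of the 37 genes were below all 5 other WT mice, 8 above and 1 within, and 24 were below all 17 other mice. The lowest against the other WT mice were Dlgap2 (6.39 CPM against 73.6 to 86.0), Grin2b (48.1 against 466.5 to 510.4), Homer1 (38.6 against 178 to 295), Grm5 (42.3 against 211 to 235) and Dlgap3 (83.5 against 301 to 338). The highest were Homer3 (199 against 7.09 to 9.15), Grin3b (1.86 against 0.00 to 0.24), the metabotropic receptor gene Grm4 (348 against 36.8 to 56.3), Gria4 (394 against 100.5 to 123) and Grin2c (249.6 against 66.8 to 81.3). Homer3, Grm4 and Grin2c are known for high expression in the cerebellum, where granule cells use Grin2c and Grm4.

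The 8 cerebellar markers summed to 2625 CPM in this mouse, against 28.3 to 58.8 CPM in the 17 others, and the 5 markers of excitatory neurons to 373 CPM, against 813 to 1775 CPM. The ratio of Grin2b to Grin2a counts was 0.604, against 2.08 to 3.18 in the 17 others, and that of Gria1 to Gria2 was 0.986, against 0.540 to 0.684. Its markers therefore went against the label of frontal cortex. With it in the fit the common dispersion was 0.0400 rather than 0.0171. In the 3 comparisons of genotypes 0 of the 36 genes then passed the edgeR threshold, beside 2, 207 and 261 of all 17285 genes. At an unadjusted p below 0.05 there were 0, 3 and 3 of the 36, beside 1152, 2475 and 3309 of all 17285. Against WT, the median difference was then -0.042 in APP/PS1 mice and -0.029 in the knockout, with 21 genes lower and 15 higher in both.

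**Figure D5:**
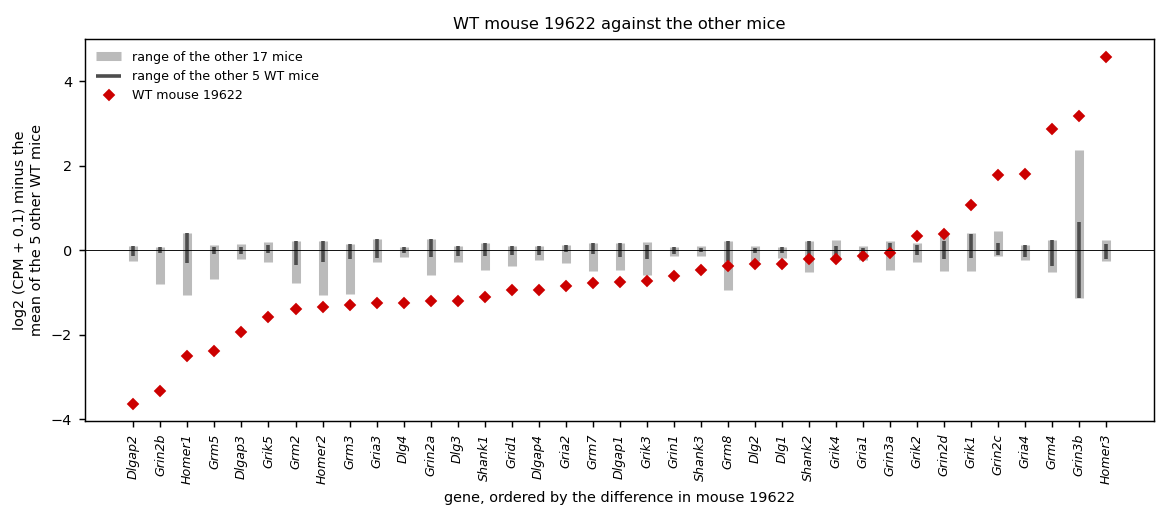
Log2 (CPM + 0.1) of the 37 genes in WT mouse 19622 (diamonds) minus the mean of the 5 other WT mice, with the range of those 5 (dark lines) and of all 17 other mice (grey lines). Dlgap2 at -3.63 and Grin2b at -3.34 lie farthest below the ranges and Homer3 at 4.58 farthest above.

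On the map, the 37 genes lie on 16 chromosomes of GRCm38, and their exons cover 3049 to 24842 bases each (median 8973; GENCODE M21). Grik5 spans chr7:25009849-25072346 on the minus strand, Grm3 chr5:9485541-9725170 on the minus strand and Homer1 chr13:93299635-93405129 on the plus strand, and none of these 3 shares exon bases with another annotated gene. Of the 37 genes 20 do, 7 of them on the same strand. The longest overlap is that of Homer3 with Ddx49 on the other strand (713 bases), followed by Grm2 with Gm28111 (470 bases) and Grin3b with Tmem259 (399 bases). The strand setting of the counting was not given in the sources used here, so reads of these pairs may not be separated and their values are uncertain to that extent.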

How the data were processed

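The authors made stranded TruSeq mRNA libraries, trimmed paired reads with Trimmomatic 0.33, aligned them with HISAT2 2.1.0 to GRCm38 and counted them per gene with featureCounts. The sources used here give no version, strand or multi-mapping setting for it. Raw counts per gene were what the authors deposited, and their own testing used DESeq2. All columns of the table were used or set apart by label (0 unused). Counts of 17 mice were filtered with filterByExpr (minimum count 10), scaled by TMM and tested with edgeR 4.0.16 in R 4.3.3 (quasi-likelihood F test, genotype plus sex in one fit of 3 genotypes, Benjamini-Hochberg over 17414 genes, threshold 0.05), as the study modelled sex and genotype and left out 1 WT mouse. Intervals are 95%. RPKM used exon unions of GENCODE M21, matched by gene ID for 99.4% of genes; promoters are RefSeq windows of GRCm38.p6. Ratios of counts were compared by exact permutation. In simulated counts for APP/PS1/FTnKO against APP/PS1 (17414 genes, 200 changed) edgeR recovered 82% of genes changed by 1 and 61% of those changed by 0.5 on the log2 scale, with 6.54% false calls. Alternatives were DESeq2 1.42.0, limma-voom 3.58.1, RLE scaling, other filters, no sex term, RIN as a covariate, 2 genotypes only, 18 mice and leaving out each mouse; the fit on mice with a RIN of at least 8 was added after seeing the data. Values in every mouse, or their range and median, are given for called genes and, per comparison and direction, for the 3 genes of lowest p, and any other gene so described was chosen after its values were seen. The genes and lists were chosen with earlier results of these data known. Some items withheld for evaluation are not reported here.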

Additional observations from a re-analysis of the deposited data

Results flagged for a closer look

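In 7 of 111 sets (37 genes in 3 genotypes) 1 mouse lay far from the rest of its genotype by Dixon's criterion, which chance alone meets in about 1 of 20 sets. APP/PS1 mouse 16975, with a RIN of 7.7, was low for Grm3 (32.6 CPM, the 5 others 52.6 to 59.7) and for Grm7 (40.5 CPM, the others 54.1 to 60.8). APP/PS1/FTnKO mouse 19720 was high for Shank3 (309.7 CPM, the others 282 to 288) and for Dlgap3 (327 CPM, the others 277 to 292). APP/PS1/FTnKO mouse 18943 was low for Dlgap4 (245 CPM, the others 283 to 306), APP/PS1/FTnKO mouse 16974 high for Grin3b (1.02 CPM, the others 0.17 to 0.39), and WT mouse 19101 high for Grik1 (18.6 CPM, the 4 others 12.5 to 14.3). Without mouse 16975 the Grm3 difference between APP/PS1 and WT was -0.29 rather than -0.40 on the log2 scale, past the threshold in neither fit.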

How the results depend on the processing

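Between APP/PS1/FTnKO and APP/PS1, 1 gene (Grik5) was called, against 0 in 18 mice, 0 with the 2 genotypes alone, 0 with mice of RIN at least 8, and 0 to 1 when 1 mouse was left out. Calls over all genes fell too, from 57 of 17414 to 2 of 17285, 5 of 16847 and 14 of 17413 in these 3 fits. Between APP/PS1 and WT 0 were called, against 4 with no filter (Grin2a, Grin2b, Grm2, Grm3) and 0 to 2 when 1 mouse was left out, 2 without mouse 19744, where calls over all genes rose from 261 of 17414 to 452 of 33121 with no filter and 465 of 17374 without that mouse. Between APP/PS1/FTnKO and WT 2 were called, against 0 in 18 mice, 7 with DESeq2 (Grik5, Grin2a, Grm2, Grm3, Dlg3, Homer1, Homer2), 5 with no filter, 3 with the 2 genotypes alone (Grin2a, Grm3, Homer1), 0 with RIN as a covariate, 1 with mice of RIN at least 8, and 0 to 6 when 1 mouse was left out, 6 without WT mouse 19101. Calls over all genes in this comparison went from 674 of 17414 to 1304 of 33091 with DESeq2, 971 of 33121 with no filter, 859 of 17015 with the 2 genotypes alone, 388 with RIN, 368 with RIN at least 8, 261 in 18 mice and 612 of 17589 without mouse 19101, where they fell while those of the 36 genes rose. Over the 13 named genes and 3 comparisons, 8 fold changes turned in 18 mice, Grin2c (-0.29) and Homer3 (-1.78) in APP/PS1 against WT and Grik2 (-0.016), Grik5 (0.020), Grin1 (0.054), Grin2c (-0.41), Homer3 (-1.82) and Dlgap3 (0.072) in APP/PS1/FTnKO against WT. With RIN 3 turned, Homer3 in APP/PS1 (-0.046) and in APP/PS1/FTnKO (-0.064) against WT and Grm2 between APP/PS1/FTnKO and APP/PS1 (-0.049), and with RIN at least 8 Homer3 in APP/PS1/FTnKO against WT did (-0.031). Leaving out 1 mouse turned 17, none past 0.073 in size, among them Grin2c in APP/PS1/FTnKO against WT without knockout mouse 19720 (-0.013, against up to 0.10 without another mouse). In 18 mice the log2 ratio differences of APP/PS1 against WT turned to 0.27 for Grin2b to Grin2a and -0.067 for Gria1 to Gria2. Leaving out 1 mouse, that of Grin2b to Grin2a between APP/PS1/FTnKO and APP/PS1 was 0.12 to 0.22, the last without mouse 19394 (exact permutation p = 0.0368, unadjusted), and that of Gria1 to Gria2 between APP/PS1/FTnKO and WT was -0.036 to 0.019. The other 4 kept their sign, at -0.14 to -0.039 and 0.027 to 0.13 for Grin2b to Grin2a (APP/PS1 and knockout against WT), and at -0.092 to -0.033 and 0.025 to 0.082 for Gria1 to Gria2 (knockout against APP/PS1, and APP/PS1 against WT). The cause of these shifts was not tested. No paired analysis was possible because the labels give the mice no shared replicate numbers.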
